A study of Mus musculus with 10 samples.

Results

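RNAseq of interscapular brown adipose tissue (iBAT) was used to describe the genes on either side of RetSat, the gene deleted in these mice. They are the 91 genes, of 55414 in the count files, that lie on chromosome 6 of GRCm39 with a smallest start between 71000000 and 74100000, RetSat itself left out. iBAT of 5 Cre- and 5 Cre+ mice was compared. All 10 mice were C57BL/6J and RetSat flox/flox, were fed normal chow and were 12 to 14 weeks old, and the Cre+ mice also carried Ucp1-Cre. Cre recombinase was expressed under the Ucp1 promoter, so that cells of iBAT without Ucp1 kept RetSat in both groups. Since the floxed alleles were homozygous in Cre- as well as Cre+ mice, the chromosome beside them was not set against one that never carried a floxed allele.

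Neighbouring genes can be tied to one another by their arrangement. Genes that start next to each other on opposite strands can share a promoter region, transcription can run past the end of a gene, and an enhancer can act on genes some way off. A stretch of chromosome beside a targeted allele is also inherited together with it. The genes described here have unrelated functions and are grouped by their place beside RetSat.

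Total counts ranged from 91903095 to 132499312 in Cre- and from 96991071 to 110293494 in Cre+ mice, and the flanking genes held 0.341 to 0.369% of them. Levels are given as CPM, counts scaled to the TMM-normalized size of each library, and each fold change is Cre+ against Cre- on the log2 scale from edgeR's quasi-likelihood test. Adjusted p-values cover all 17690 genes that passed edgeR's filter on low counts. Brown adipocyte markers (11 of 11 tested, 0 called by edgeR, 2 higher at an unadjusted p under 0.05) summed to 16379 to 20301 CPM in Cre- and 16445 to 20045 CPM in Cre+ mice. Lung markers stayed at or under 0.107 CPM in every library. Of the endothelial (5 tested), liver (3 of 4 tested), macrophage (6 tested) and immediate early genes (9 tested), edgeR called 0. At an unadjusted p under 0.05 by edgeR, 1 endothelial gene was lower (Tek, -0.19) and 1 higher (Kdr, a receptor of VEGF, 0.34, called by DESeq2), 2 liver genes were lower (Alb, -2.08, and Apoa1, -1.85), 0 macrophage genes were lower or higher, and 2 immediate early genes were lower (Fosb, -1.81, and Dusp1, -0.57) and 1 higher (Junb, 0.59). The values of Alb and Apoa1 lean on Cre- replicate 3. That library held 7.77 CPM of Alb and 1.09 CPM of Apoa1, against at most 1.11 and 0.387 CPM in the other Cre- libraries. The liver markers summed to 35.6 to 105 CPM in Cre- and 46.9 to 259 CPM in Cre+ mice. Most of each sum was Cyp2e1 (34.0 to 99.3 and 46.3 to 258 CPM), which differed by 0.40 (SE 0.56). The part of these marker genes in the values below was not tested. Skeletal muscle markers (10 of 12 tested, 0 called and 0 at an unadjusted p under 0.05 by edgeR) summed to 576 CPM in Cre- replicate 2 and 284 CPM in Cre+ replicate 4, and to at most 21.1 CPM in the other libraries. In whole tissue, fewer cells of a type and less RNA per cell cannot be told apart.

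RetSat, at 72575458 to 72585408 on the plus strand, had 151, 169, 156, 194 and 255 CPM in Cre- mice. In Cre+ mice it had 18.9, 20.7, 39.0, 18.0 and 23.0 CPM. The groups did not overlap, and the log2 fold change was -2.95 (SE 0.24, adjusted p = 0.00402 by edgeR). Counts covered all exons of the gene, the floxed ones among them.

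Of the 91 flanking genes, 63 lie at lower coordinates than RetSat, 27 at higher coordinates, and 1 (Gm45053) within it on the opposite strand. The filter on low counts passed 47 of them, 35 below RetSat and 11 above it together with Gm45053. The 44 others had no count in any library (19 genes) or few (25 genes, at most 24 counts and 0.227 CPM in a library). Of the 36 protein-coding genes 32 were tested, and of the 55 genes of other kinds, such as lincRNA, antisense and pseudogenes, 15 were tested. Among the tested genes 33 had a mean of at least 1 CPM.

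**Figure D1:**
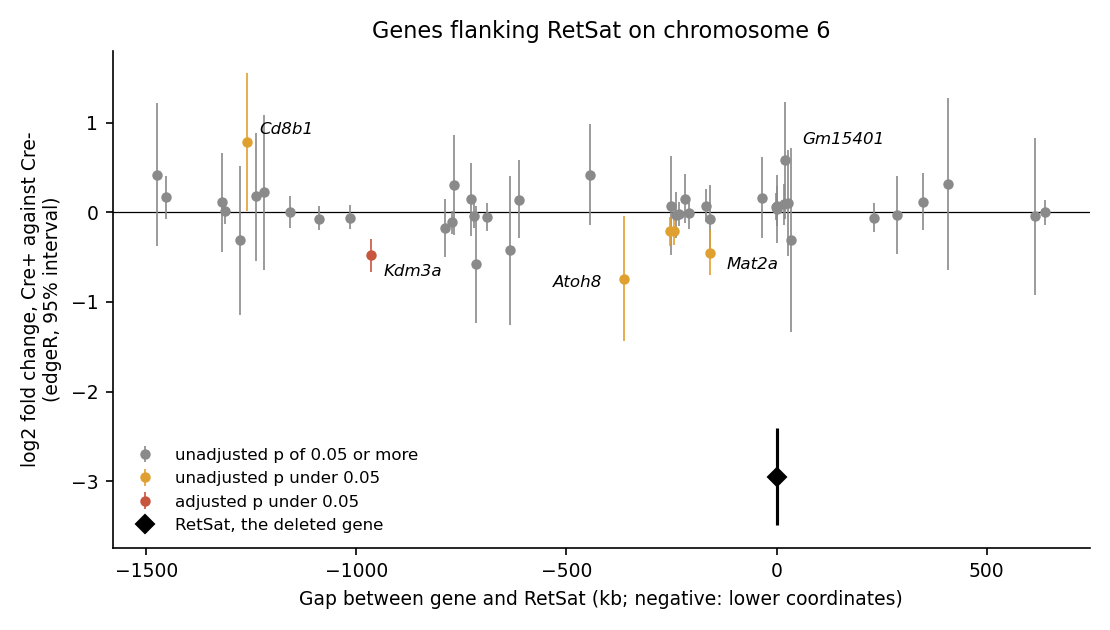
log2 fold change of Cre+ against Cre- mice with its 95% interval (y axis) for the 47 tested flanking genes by the gap between the gene and RetSat in kb (x axis, negative at lower coordinates), with RetSat at 0. RetSat is at -2.95, and the flanking genes lie between -0.74 and 0.78 those within 100 kb between -0.31 and 0.58.

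As a group, the flanking genes lay where other genes lay. The median log2 fold change of the 47 tested genes was 0.00 (range -0.74 to 0.78), with 23 below and 24 above 0, beside a median of 0.01 over the 902 other tested genes of chromosome 6 and 0.00 over all genes tested. An absolute log2 fold change under 0.25 was found for 72.3% of the flanking genes and 72.2% of all genes. At an adjusted p under 0.05, edgeR called 1 flanking gene lower (Kdm3a, 2.13% of 47) beside 0.130% of all genes, and 0 higher beside 0.0339% of all genes. DESeq2 called 2 lower (Kdm3a and Mat2a, 4.44% of the 45 with an adjusted p) beside 1.22%, and 0 higher beside 1.06%. At an unadjusted p under 0.05 by edgeR, 5 were lower (Kdm3a, Mat2a, Atoh8, Usp39 and 0610030E20Rik, 10.6%) beside 5.95% of all genes, and 1 was higher (Cd8b1, 2.13%) beside 6.40%. The 5 Cre+ mice lay below the 5 Cre- mice for 2 genes (Kdm3a and Usp39, 4.26%) beside 1.47% of all genes, and above them for 0 beside 1.20%. With counts this small, these shares rest on 1 to 5 genes.

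The genes called or with an unadjusted p under 0.05 by edgeR all lay more than 100 kb from RetSat. Mat2a, at 159 kb, was still among the 8 nearest tested genes on its side. Among all genes, the shares passing this unadjusted limit were 5.95% (lower) and 6.40% (higher). Each distance range below held 7 to 12 tested genes, and 0 to 2 of them passed. Such counts are too small to set apart from these shares, so no trend with distance is read from them. Within 100 kb, 8 of 12 genes were tested, 0 were called, 0 had an unadjusted p under 0.05 by edgeR, and the median log2 fold change was 0.08 (1 negative, 7 positive). From 100 to 250 kb, 9 of 10 were tested, with a median of -0.03 and 2 lower at an unadjusted p under 0.05 by edgeR (Mat2a and 0610030E20Rik). From 250 to 500 kb, 7 of 14 were tested, with a median of 0.07 and 2 lower by the same measure (Usp39 and Atoh8). From 500 to 1000 kb, 12 of 29 were tested with a median of -0.05, and Kdm3a was the gene called. Beyond 1000 kb, 11 of 26 were tested with a median of 0.11, and Cd8b1 was the one with an unadjusted p under 0.05 by edgeR. The 6 genes named here all lie at lower coordinates than RetSat, where 35 of the 47 tested genes are.

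Elmod3, which codes for a GTPase-activating protein for Arl-type small GTPases, starts 61 bases from the start of RetSat on the opposite strand. The bases between the annotated starts are shown because both genes are transcribed away from them. The sequence is from RefSeq (GRCm38.p6, chr6:72598414-72598474, plus strand), where the gap is as long as in the deposited annotation of GRCm39.
Elmod3-RetSat gap: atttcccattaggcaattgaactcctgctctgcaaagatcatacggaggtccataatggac
It holds 44.3% G and C and no match on either strand to the GC box GGGCGG, the CCAAT box CCAAT, the E-box CACGTG, the cAMP response element core TGACG or the heat shock element core GAANNTTC. These occur in 32.7%, 33.8%, 6.02%, 17.8% and 6.69% of the 250-base stretches before 32851 annotated starts. No match says only that these letters are not in this short window.

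Elmod3 had 39.5, 43.5, 44.8, 44.7 and 49.7 CPM in Cre- mice and 46.8, 45.7, 48.7, 42.3 and 48.1 CPM in Cre+ mice. The groups overlapped over most of their range. The log2 fold change was 0.06 (SE 0.07, 95% interval -0.09 to 0.21, adjusted p = 0.77 by edgeR), beside -2.95 for RetSat. According to the paper, the loxP sites flank exons inside RetSat, so the gap between the starts lay outside the floxed stretch. Whether Elmod3 and RetSat share regulation was not tested.

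Tgoln1 codes for a membrane protein of the trans-Golgi network and ends 6 bases beyond the end of RetSat, on the opposite strand. It had 602, 557, 635, 683 and 690 CPM in Cre- mice and 708, 808, 653, 535 and 630 CPM in Cre+ mice. The highest and the lowest value were both from Cre+ mice. The log2 fold change was 0.07 (SE 0.10, 95% interval -0.15 to 0.29, adjusted p = 0.81 by edgeR). Tgoln1 overlaps Gm20536 over 8.1% of its exons, and Gm20536 had no count in any library.

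Gm45053 lies inside RetSat on the opposite strand, and 26.0% of its exon bases are also exon of RetSat. Its levels were 2.37, 2.82, 2.03, 2.83 and 2.68 CPM in Cre- and 2.03, 3.26, 3.22, 2.61 and 1.92 CPM in Cre+ mice. The groups overlapped, with a log2 fold change of 0.04 (SE 0.18, 95% interval -0.34 to 0.42). Reads were counted without strand, so reads of RetSat and of Gm45053 over their shared bases cannot be told apart. The rest of Gm45053 lies between exons of RetSat, where reads of unspliced RetSat RNA would be counted for Gm45053. The part of such reads in its values was not tested.

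**Figure D2:**
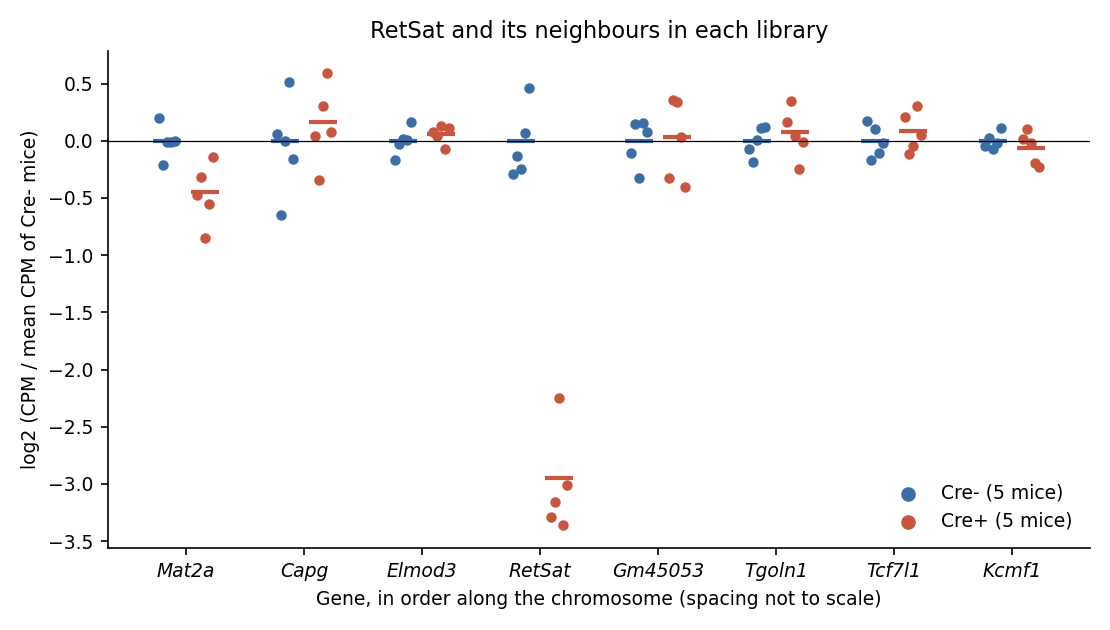
log2 ratio of each library's CPM to the mean of the 5 Cre- mice (y axis) for RetSat and 7 genes near it in chromosome order (x axis, not to scale), with points for mice and bars for the log2 ratio of group means. Cre+ mice stand far below Cre- mice for RetSat, and for Mat2a, Elmod3, Gm45053, Tgoln1, Tcf7l1, Capg and Kcmf1 the groups overlap.

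The next genes on the higher side are Tcf7l1, a DNA-binding factor of the Wnt pathway, and 3 non-coding genes that lie within or beside it. Tcf7l1 (gap 18.0 kb) had 10.7, 8.46, 10.2, 8.80 and 9.38 CPM in Cre- and 11.0, 8.79, 9.22, 11.7 and 9.82 CPM in Cre+ mice, with a log2 fold change of 0.09 (SE 0.11). Gm15401 (20.9 kb) had 0.330, 0.341, 0.477, 0.541 and 0.643 CPM in Cre- and 0.738, 0.883, 1.05, 0.419 and 0.393 CPM in Cre+ mice. For Gm15401, 3 Cre+ mice lay above every Cre- mouse and 2 among them, and the log2 fold change of 0.58 (SE 0.30, adjusted p = 0.467 by edgeR) was the largest of the nearest genes. It shares 926 exon bases with Gm37969 (0.10, SE 0.27) on the opposite strand, and Gm38114 (-0.31, SE 0.48) was measured from as few as 5 counts. Farther on lie Kcmf1, a ubiquitin ligase (233 kb, -0.06, SE 0.07), the non-coding D530018E20Rik (287 kb, -0.03, SE 0.20) and Tmsb10, which binds actin monomers (349 kb, 0.12, SE 0.15). None of these was called by edgeR or DESeq2.

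On the lower side Capg, which caps actin filaments, follows Elmod3 at 35.5 kb. It had 3.44, 2.11, 3.30, 4.72 and 2.95 CPM in Cre- and 3.40, 2.60, 4.07, 4.97 and 3.48 CPM in Cre+ mice. The groups overlapped (log2 fold change 0.16, 95% interval -0.29 to 0.62). Beyond Mat2a come Ggcx, the gamma-glutamyl carboxylase of the vitamin K cycle (168 kb, 0.07, SE 0.08), the vesicle SNARE genes Vamp8 (208 kb, -0.01, SE 0.08) and Vamp5 (218 kb, 0.15, SE 0.13), and the ubiquitin ligase gene Rnf181 (232 kb, -0.02, SE 0.06). Of these 4 genes 0 were called by edgeR or DESeq2, and for Rnf181 the 95% interval of -0.15 to 0.12 bounds a difference most closely. Over Gm45053 and the 8 nearest tested genes on each side, 17 in all, log2 fold changes ran from -0.45 to 0.58 with a median of 0.06, and Mat2a was the 1 gene with an unadjusted p under 0.05 by edgeR.

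Kdm3a was the flanking gene that edgeR called. It codes for a demethylase that removes methyl groups from lysine 9 of histone H3, and mice without it are known for obesity and impaired thermogenic gene expression in brown fat. The gene (ENSMUSG00000053470.14) lies on the minus strand from 71565956 to 71609974, 965 kb from RetSat. It had 36.0, 37.6, 35.4, 33.3 and 36.7 CPM in Cre- mice and 28.4, 27.8, 26.2, 25.2 and 20.5 CPM in Cre+ mice. The lowest Cre- mouse lay above the highest Cre+ mouse. The mean of Cre+ mice (25.6 ± 3.12 CPM, SD, n = 5) was 71.5% of that of Cre- mice (35.8 ± 1.60 CPM, SD, n = 5). The log2 fold change was -0.48 (SE 0.09, 95% interval -0.67 to -0.30, adjusted p = 0.0473 by edgeR), and DESeq2 gave an adjusted p of 0.000527. The edgeR call lay close to the threshold. It was lost when any one library other than Cre+ replicate 4 was left out (adjusted p 0.0560 to 0.156 by edgeR), while the log2 fold change stayed between -0.52 and -0.41.

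The stretch before the Kdm3a start is shown because the gene is the one called, with motif matches in capitals (RefSeq, GRCm38.p6, chr6:71632991-71633167, minus strand, annotated protein-coding exons left out).
Kdm3a: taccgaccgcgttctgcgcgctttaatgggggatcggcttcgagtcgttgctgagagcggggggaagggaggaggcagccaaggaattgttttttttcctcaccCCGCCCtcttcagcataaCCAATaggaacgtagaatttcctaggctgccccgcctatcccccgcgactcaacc
The capitals mark 1 GC box, read on the reverse strand, and 1 CCAAT box. Both motifs are common among annotated starts (32.7% and 33.8%).

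Of 10 other genes of H3K9 demethylases, a list written after values had been seen, 9 were tested and 0 were called by edgeR or DESeq2, with a median log2 fold change of 0.00. The closest relatives Kdm3b (0.00, SE 0.09) and Jmjd1c (0.07, SE 0.14) were among those not called. By unadjusted p, 1 of the 9 passed 0.05 and it was higher (Kdm4a, 0.19, SE 0.07, adjusted p = 0.321 by edgeR).

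Mat2a codes for the catalytic subunit of the methionine adenosyltransferase outside liver, which makes S-adenosylmethionine, the methyl donor of the cell. It lies on the minus strand from 72409782 to 72416541 (ENSMUSG00000053907.11), 159 kb from RetSat. Cre- mice had 302, 228, 262, 262 and 263 CPM and Cre+ mice 190, 212, 146, 180 and 238 CPM. The groups overlapped by 1 mouse of each, since Cre+ replicate 5 lay above Cre- replicate 2, and 4 of 5 Cre+ mice lay below every Cre- mouse. Cre+ mice averaged 193 ± 34.5 CPM (SD, n = 5), which is 73.3% of the Cre- mean of 264 ± 26.3 CPM (SD, n = 5). The log2 fold change was -0.45 (SE 0.12, 95% interval -0.70 to -0.20, adjusted p = 0.142 by edgeR). DESeq2 gave an adjusted p of 0.0388, so that the call depended on the test. With any 1 library left out, Mat2a was not called by edgeR (adjusted p 0.119 to 0.299). Cre- replicate 2, the lowest Cre- mouse for Mat2a, was also the one highest in skeletal muscle markers. Without it and Cre+ replicate 4 the value was -0.47 (adjusted p = 0.0985 by edgeR). Leaving out the lowest Cre- mouse raises the Cre- mean by construction, so no conclusion is drawn from that fit. The part of muscle RNA in the Mat2a values was not tested.

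The stretch before the Mat2a start (RefSeq, GRCm38.p6, chr6:72439559-72439806, minus strand) is shown because all 248 bases of it lie inside the exon of Particl, a non-coding gene transcribed from the opposite strand.
Mat2a: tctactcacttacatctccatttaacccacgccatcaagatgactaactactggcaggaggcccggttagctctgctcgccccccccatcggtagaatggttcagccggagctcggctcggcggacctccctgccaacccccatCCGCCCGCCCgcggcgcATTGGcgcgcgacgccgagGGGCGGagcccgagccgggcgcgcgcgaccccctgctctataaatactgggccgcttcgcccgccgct
The capitals mark 3 GC boxes, of which 2 overlap, and 1 CCAAT box on the reverse strand, in a stretch of 67.3% G and C. Particl had 1.75, 3.10, 2.89, 2.24 and 2.45 CPM in Cre- and 2.59, 2.47, 2.65, 2.25 and 1.90 CPM in Cre+ mice. These groups overlapped, with a log2 fold change of -0.07 (SE 0.17, 95% interval -0.43 to 0.30). Mat2a and Particl share 508 exon bases, 32.6% of the exons of Particl and 11.3% of those of Mat2a, and reads over them cannot be assigned by strand.

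Of 21 other genes listed for the methionine cycle and S-adenosylmethionine metabolism, 18 were tested and 0 were called by edgeR or DESeq2, with 12 log2 fold changes below and 6 above 0 and a median of -0.10. At an unadjusted p under 0.05 by edgeR, 2 were lower and 1 higher. Methionine synthase, Mtr, was one of the lower ones (-0.26, SE 0.08, adjusted p = 0.21 by edgeR). Cbs, which leads homocysteine out of the cycle, was at 1.00 on the same scale (SE 0.43, adjusted p = 0.374 by edgeR). Its levels were low and the groups overlapped (0.0843 to 0.295 CPM in Cre- and 0.171 to 0.629 CPM in Cre+ mice). Mat2b, the regulatory partner of Mat2a, was at 0.13 (SE 0.11), and Mettl16, a methyltransferase that acts on Mat2a RNA, at 0.07 (SE 0.11).

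**Figure D3:**
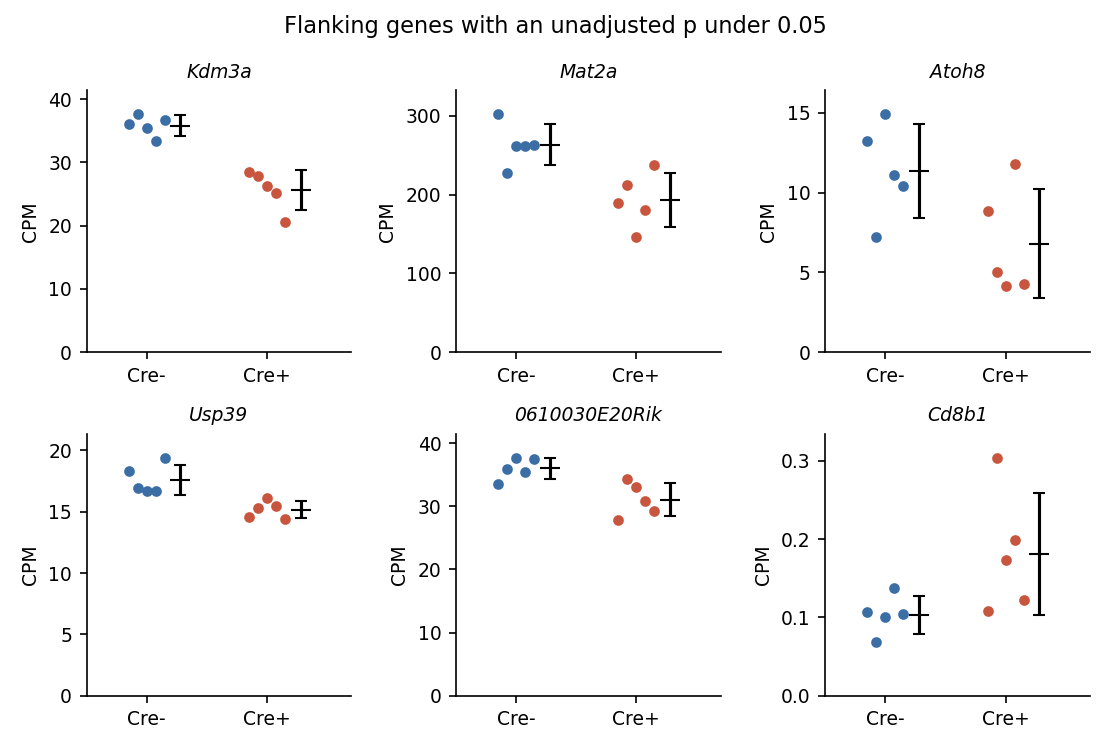
CPM in each mouse (points, y axis from 0) for the 6 flanking genes with an unadjusted p under 0.05 by edgeR, with the mean and SD of 5 mice as a bar beside each group. Kdm3a and Usp39 are the genes whose groups do not overlap, and Atoh8 and Cd8b1 vary most within groups.

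Atoh8, a transcription factor of the basic helix-loop-helix family known as a target of BMP signalling, lies on the minus strand from 72183161 to 72212561 (ENSMUSG00000037621.9), 363 kb from RetSat. Cre- mice had 13.2, 7.19, 14.9, 11.1 and 10.4 CPM and Cre+ mice 8.82, 5.04, 4.12, 11.8 and 4.25 CPM. In Atoh8 3 Cre+ mice lay below all Cre- mice, whereas Cre+ replicates 1 and 4 lay within the Cre- range. Cre+ replicate 4 was the highest of its group, and Cre- replicate 2 was the lowest of its group. The log2 fold change was -0.74 (SE 0.32, 95% interval -1.44 to -0.04), the most negative among the flanking genes, with adjusted p = 0.383 by edgeR. Cre- replicate 2 and Cre+ replicate 4 had the highest sums of skeletal muscle markers (576 and 284 CPM) in their groups. They also had the highest sums of immediate early genes (808 and 541 CPM, against at most 405 and 240 CPM in the other mice of each group). Nr4a1 alone made up 582 and 338 CPM of the latter sums. In Cre+ replicate 4, Fosb, Jun, Dusp1, Atf3, Ier2 and Nr4a1 were the highest of the Cre+ mice, whereas Egr1 (4.37 CPM) and Junb (16.1 CPM) were the lowest. Without Cre- replicate 2 and Cre+ replicate 4, the log2 fold change of Atoh8 was -1.16 (adjusted p = 0.0474 by edgeR). Leaving out the lowest Cre- and the highest Cre+ mouse for Atoh8 widens its difference by construction, so no conclusion is drawn from that fit. The part of muscle RNA or of immediate early genes in this result was not tested.

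The stretch before the Atoh8 start is shown for its CACGTG, 1 form of the E-box (RefSeq, GRCm38.p6, chr6:72235578-72235827, minus strand).
Atoh8: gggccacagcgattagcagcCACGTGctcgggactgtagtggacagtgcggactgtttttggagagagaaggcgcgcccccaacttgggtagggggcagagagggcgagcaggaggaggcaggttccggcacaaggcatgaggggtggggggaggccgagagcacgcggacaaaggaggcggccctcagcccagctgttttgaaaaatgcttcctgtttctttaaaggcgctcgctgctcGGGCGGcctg
The capitals mark 1 E-box CACGTG, found in 6.02% of stretches before annotated starts, and 1 GC box, in a stretch of 63.2% G and C. Other forms of the E-box were not searched for, and whether Atoh8 binds this site was not tested.

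Among 20 genes of BMP signalling, Id factors and E proteins, 19 were tested and 0 were called by edgeR or DESeq2, with a median log2 fold change of -0.01. By unadjusted p, Smad1, a BMP-activated transcription factor, was lower (-0.46, SE 0.15, adjusted p = 0.238 by edgeR) and Id2, an inhibitor of basic helix-loop-helix factors, was higher (0.60, SE 0.21, adjusted p = 0.282 by edgeR). Id1 (0.08, SE 0.16) and Id3 (-0.02, SE 0.18) had small differences with intervals that include 0.

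The 3 other genes with an unadjusted p under 0.05 had smaller differences or lower counts. Usp39, a splicing factor related to ubiquitin proteases, lies 253 kb from RetSat and had 18.3, 16.9, 16.7, 16.7 and 19.4 CPM in Cre- and 14.6, 15.3, 16.1, 15.5 and 14.4 CPM in Cre+ mice. The groups did not overlap, and the log2 fold change was -0.21 (SE 0.07, adjusted p = 0.269 by edgeR). The adjacent 0610030E20Rik, at 245 kb, had 33.5, 36.0, 37.7, 35.4 and 37.5 CPM in Cre- and 27.8, 34.4, 33.0, 30.9 and 29.3 CPM in Cre+ mice. There the groups overlapped by 1 mouse of each, and the log2 fold change was again -0.21 (SE 0.07, adjusted p = 0.256 by edgeR). Its exons share 675 bases with Gm45051 on the opposite strand (0.07, SE 0.26).

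Cd8b1 and Cd8a code for the chains of the CD8 coreceptor of cytotoxic T cells and lie 1261 and 1219 kb from RetSat. Cd8b1 had 0.107, 0.0682, 0.100, 0.137 and 0.105 CPM in Cre- and 0.108, 0.304, 0.173, 0.199 and 0.122 CPM in Cre+ mice, from 6 to 32 counts. The groups overlapped, and the log2 fold change was 0.78 (SE 0.35, adjusted p = 0.394 by edgeR). Cd8a differed by 0.23 on the log2 scale (SE 0.40), and Cre+ replicate 2 was the highest of its group for both. The 7 T cell markers, all tested, 0 called and 0 at an unadjusted p under 0.05 by edgeR, summed to 2.04 to 3.34 CPM in Cre- and 2.46 to 4.07 CPM in Cre+ mice, and their part in the Cd8 values was not tested.

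The flanking genes spanned a wide range of levels. Per kb of exon, Suclg1, the alpha subunit of succinyl-CoA ligase of the citric acid cycle, was the highest in Cre- mice (223 ± 12.8 CPM per kb, SD, n = 5). Tgoln1 (126 ± 11.2), Mat2a (58.7 ± 5.85), Immt (58.2 ± 4.27), Krcc1 (37.3 ± 2.50) and Chmp3 (25.6 ± 1.49 CPM per kb, SD, n = 5) followed, and of these neighbours Mat2a and Immt differed by less than their spread. RetSat itself was at 52.3 ± 12.0 CPM per kb (SD, n = 5). In Cre+ mice the order of these genes was the same except that Immt (56.6 CPM per kb) came before Mat2a (43.1 CPM per kb).

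**Figure D4:**
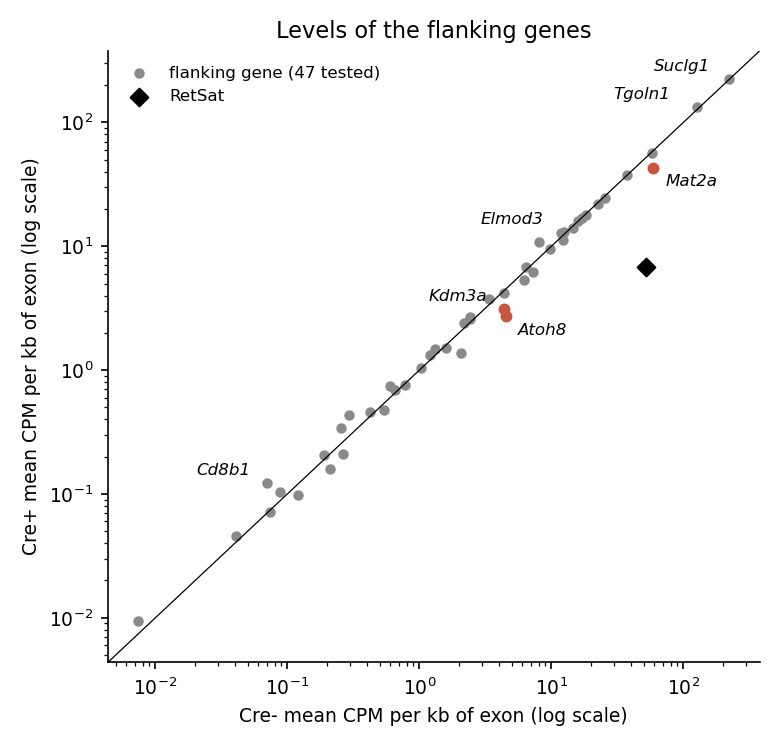
Mean CPM per kb of exon in Cre- (x axis) and Cre+ (y axis) mice on log scales for the 47 tested flanking genes and RetSat, with the line of equal levels. The flanking genes follow the line over the whole range, Mat2a, Kdm3a and Atoh8 (red) lie below it, and RetSat lies farther below than any of them.

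Suclg1 and Immt code for mitochondrial proteins, which brown adipocytes hold in abundance. Suclg1 (640 kb) had 1049, 1123, 968, 999 and 1016 CPM in Cre- and 1058, 990, 957, 1102 and 1052 CPM in Cre+ mice, and its log2 fold change was 0.00 (SE 0.07, 95% interval -0.14 to 0.14). Its partners Suclg2 (-0.03, SE 0.05) and Sucla2 (-0.08, SE 0.09) were not called by edgeR or DESeq2. Immt, the core subunit of the MICOS complex that shapes cristae (721 kb), had 579, 695, 652, 684 and 692 CPM in Cre- and 639, 653, 638, 636 and 645 CPM in Cre+ mice, and its log2 fold change was -0.04 (SE 0.06). The Cre+ values of Immt lay within the range of the Cre- values. Of 12 listed MICOS genes and outer membrane partners 10 were matched by symbol, all were tested, 0 were called by edgeR or DESeq2, and 1 was higher at an unadjusted p under 0.05 (Dnajc11, 0.22, SE 0.09, adjusted p = 0.352 by edgeR). The mitochondrial ribosome genes Mrpl35 (-0.11, SE 0.06) and Ptcd3 (-0.05, SE 0.07), named after their values were seen, were not called either. The 4 matched genes of 5 listed for the vitamin K cycle of Ggcx were tested, with 0 called and 0 at an unadjusted p under 0.05 by edgeR and a median log2 fold change of 0.01.

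Some flanking genes varied widely from mouse to mouse, and those that follow were named after their values were seen. St3gal5, the synthase of ganglioside GM3 (444 kb), had 19.7, 15.7, 14.8, 24.6 and 30.3 CPM in Cre- and 40.0, 32.2, 21.3, 18.2 and 29.3 CPM in Cre+ mice. Its highest library was 2.71 times its lowest, and the log2 fold change was 0.42 (SE 0.25, adjusted p = 0.534 by edgeR). Polr1a, the largest subunit of RNA polymerase I (614 kb), spanned 2.20 times (0.14, SE 0.20). In contrast, the ubiquitin ligase gene Rnf103 (1088 kb) spanned 1.14 times over all 10 mice (-0.07, SE 0.06). In all, 16 of the 47 tested genes had a highest library under 1.5 times the lowest.

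**Figure D5:**
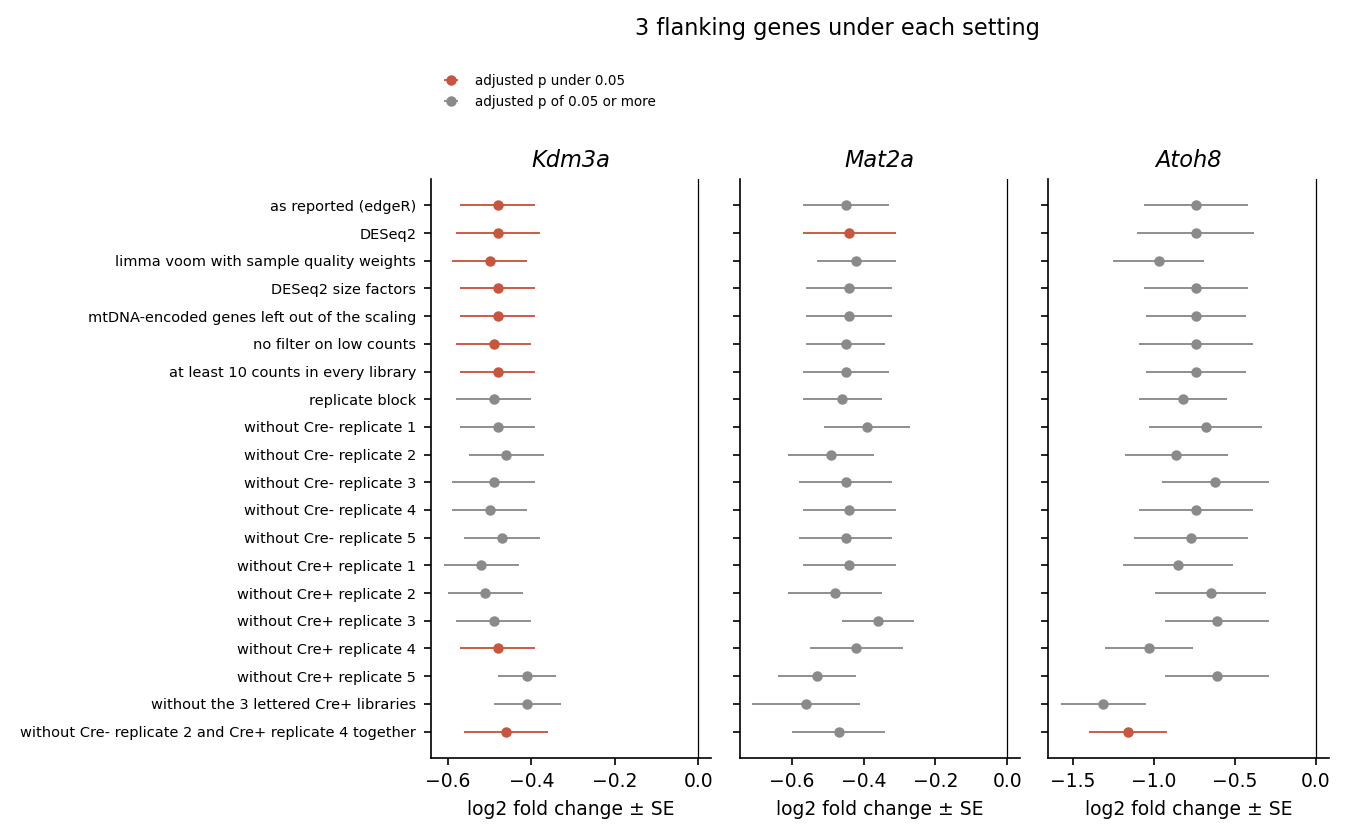
log2 fold change with its SE (x axis) of Kdm3a, Mat2a and Atoh8 as reported, with each alternative test, scaling or filter, and with libraries left out (y axis), in red where the adjusted p was under 0.05. All estimates are negative, Kdm3a runs from -0.52 to -0.41, and the calls of all 3 genes depend on the setting.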

How the data were processed

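Per the file headers, the authors made the count files with featureCounts 2.0.1 on exons of GENCODE M28. Their processing notes name Trimmomatic for trimming and STAR for alignment to GRCm39, with versions not given in the sources used here. The deposited values are raw counts per gene. Mates of a pair were counted singly, without strand and without reads of several alignments. RNA was poly(A) selected. Symbols were matched for 94.0% of genes from a table of identifiers, and gene types from GENCODE M21.

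edgeR 4.0.16 in R 4.3.3 was run on all genes (TMM, filterByExpr with a minimum count of 10 and minimum total of 15, robust quasi-likelihood test, Benjamini-Hochberg adjustment, calls at 0.05). The SE is the log2 fold change divided by the square root of F. DESeq2 1.42.0, limma 3.58.1 and other scalings, filters and left-out libraries were alternatives. The genes named are Mat2a, Atoh8, the 8 nearest tested genes on each side, those with an adjusted p under 0.05 by edgeR or DESeq2 or an unadjusted p under 0.05 by edgeR, the 6 highest per kb, and listed partners with the smallest p. Others are said to be named after their values were seen. The flanking genes and lists were chosen with earlier results of these data known. Of the 91 genes, 44 had a promoter entry in the RefSeq table of GRCm38.p6, the build of the printed sequences, whose coordinates differ from those of GRCm39. Listed partner genes are given by counts with values for a few, and some values are not reported here.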

Additional observations from a re-analysis of the deposited data

Results flagged for a closer look

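In 94 groups of 5 mice (47 tested flanking genes in Cre- and in Cre+), 1 library stood apart from the other 4 by Dixon's criterion in 6 groups, where chance alone gives about 1 in 20. Smyd1, a muscle histone methyltransferase gene, had 2.69 CPM in Cre- replicate 2 beside 0.730 to 0.937 CPM in the other Cre- mice. This library also had the highest sum of skeletal muscle markers (576 CPM). Cre+ replicate 4, next in that sum (284 CPM), had 0.987 CPM of Smyd1, within the 0.549 to 1.44 CPM of the Cre+ mice. Cre+ replicate 2 stood apart for 3 genes. It had 0.731 CPM of Cd8a beside 0.239 to 0.315 CPM, 30.1 CPM of Rnf103 beside 26.9 to 27.6 CPM, and 111 CPM of Ptcd3 beside 90.6 to 95.5 CPM in the other Cre+ mice. Gm45051, which overlaps 0610030E20Rik, had 0.339 CPM in Cre+ replicate 4 beside 0.674 to 0.819 CPM. Gm40377 had 0.0418 CPM in Cre- replicate 3 beside 0.146 to 0.207 CPM, at the level of a few counts.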

How the results depend on the processing

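The median log2 fold change of the flanking genes stayed between -0.01 and 0.05 and 0 of them were called higher under every alternative run. DESeq2 called 2 flanking genes lower (Mat2a at -0.44) and 393 of all genes, against 29 by edgeR. limma voom called 147 of all genes and put Gm45053 at -0.03. Without a filter on low counts 92 of all genes were called and Suclg1 was at 0.00 with the opposite sign. By each of these 3 and with the replicate block, 0 flanking genes were higher at an unadjusted p under 0.05. The filter of at least 10 counts in every library also gave 0. It leaves out Cd8b1, which had as few as 6 counts, so that Cd8b1 could not be counted there. With the replicate number as a block 0 flanking genes were called lower (Kdm3a adjusted p = 0.0769 by edgeR). The deviations of same-numbered libraries correlated at over 0.1 in 3 of 5 pairs and below 0 in 2 (-0.241 to 0.396), and 3 of 10 libraries correlated best with their own number, so the numbers were not taken to pair the mice. Without the 3 Cre+ libraries whose identifier ends in a letter (replicates 1, 4 and 5), 0 were called lower, and an unadjusted p under 0.05 was reached by 3 lower and 2 higher genes, Atoh8 was at -1.31, and the signs of Tcf7l1 (-0.08), Particl (0.04), Suclg1 (-0.09), Kcmf1 (0.04) and Tmsb10 (-0.05) turned. Without Cre- replicate 2 and Cre+ replicate 4, 2 were called lower (Kdm3a and Atoh8, at -1.16) with 289 of all genes, and Capg (-0.09), Tcf7l1 (-0.01), Particl (0.04), Smyd1 (0.22) and Tmsb10 (-0.03) turned. Leaving out 1 library gave 0 to 1 called lower (1 without Cre+ replicate 4), 4 to 6 lower and 0 to 2 higher by unadjusted p under 0.05, and 9 (without Cre+ replicate 1) to 331 (without Cre+ replicate 4) of all genes. The signs of Gm45053 (-0.06 to 0.13), Tgoln1 (0.00 to 0.14), Particl (-0.17 to 0.03), Suclg1 (-0.02 to 0.04), Smyd1 (-0.51 to 0.23) and Cd8a (-0.15 to 0.59) turned in some of these fits. The causes were not tested. With 5 mice per group, differences of genes at a few counts per library could not be resolved.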
